A study of Homo sapiens with 6 samples.

Results

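A375, an established human melanoma line, was grown for 24 h with 3 µM vemurafenib, which inhibits the RAF kinases upstream of ERK, or with the solvent DMSO, and messenger RNA was measured on Illumina bead arrays. Each treatment has 3 samples, and their titles carry the number 2, the number 1 or no number. The members described here are the 2 samples numbered 2, called vemurafenib 2 and DMSO 2, of 6 samples in all. The rule that picks them uses the titles alone, and it was set with earlier results of these data known. They were set against the other 4 (vemurafenib unnumbered, vemurafenib 1, DMSO unnumbered and DMSO 1). What the number stands for is not stated in the labels, which do not say that the samples came from separate cultures, nor do they give a passage, a density or a date. All 6 samples are one cell line with no genetic change named, and labels call its source a melanoma metastasis. Only 2 samples stand on one side, and the p-values therefore rest on sample-to-sample spread that may be no more than technical. Where 2 values are given for other samples of one treatment, the unnumbered sample comes before sample 1.

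The gene groups below report different parts of a growing cell. E2F factors switch on the enzymes that copy DNA in S phase, FOXM1 and its partners switch on the genes of mitosis, and MYC drives the assembly of ribosomes. Interferon induces a shared set of antiviral genes, many of which carry a short response element in their promoters, and many melanoma lines hold a basal level of these genes. SREBP factors induce the enzymes of cholesterol and fatty acid synthesis when sterols run low, while LXR factors induce sterol export when they are plentiful. Hypoxia-inducible factor raises glycolytic enzymes and a set of oxygen-responsive genes, and the ChREBP and MondoA factors raise TXNIP when glucose is ample.

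Each sample was hybridised to 1 array, so the number of arrays limits the precision of every value. Between 18370 and 20044 probes per array were detected (detection p under 0.01), with median signals of 91.0 to 94.5 intensity units. The unnumbered and 1 samples of a treatment were close, with a Pearson r of 0.989 in vemurafenib and 0.990 in DMSO over all kept probes. Vemurafenib 2 correlated with the other vemurafenib samples at 0.972 and 0.969, and DMSO 2 with the other DMSO samples at 0.972 and 0.972. The first principal component held 61.5% of the variance and separated the treatments, with each sample numbered 2 below the others of its treatment. Vemurafenib 2 lay at 12.2, against 56.9 and 58.1, and DMSO 2 at -62.9, against -34.0 and -30.3. The second component held 19.8% and had vemurafenib 2 and DMSO 2 at 39.5 and 28.3, against -0.866 and -8.96 in the other vemurafenib samples and -30.3 and -27.7 in the other DMSO samples. SOX2 (log2 difference 0.42 ± 0.21 SE, limma adjusted p = 0.227) and CD24 (0.24 ± 0.34, adjusted p = 0.687), the genes of the series title, did not pass the test between the samples numbered 2 and the others by their brightest probes. A second, dimmer SOX2 probe did pass (0.82 ± 0.15, adjusted p = 0.0218). The reference genes ACTB (0.34 ± 0.15, adjusted p = 0.186) and GAPDH (-0.08 ± 0.14, adjusted p = 0.769) did not pass.

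With treatment as a covariate, 1211 of 12036 genes tested (10.1%) differed between the samples numbered 2 and the others at a limma adjusted p under 0.05. Of these, 448 were higher (3.72%) and 763 lower (6.34%), and 102 of the higher and 294 of the lower genes differed at least 2-fold. Of all calls 37.0% were thus higher, and with median centring of the arrays, in place of quantile normalization, the share was 51.3% (763 higher and 725 lower). With the sample number as a block of 3 levels (unnumbered, 1 and 2), 533 genes passed, 150 higher and 383 lower. The count was 350 without vemurafenib 2, 407 without vemurafenib unnumbered, 153 without vemurafenib 1, 590 without DMSO 2, 516 without DMSO unnumbered and 427 without DMSO 1. Both samples numbered 2 lay above both other samples of their treatment for 2973 genes (24.7%) and below them for 2963 (24.6%), and the median difference over all genes was 0.01 on the log2 scale. Each of the 1211 called genes was among these, so such a gap sets no called gene apart from another. Many fold changes depended on the background correction. Of the 99 called genes named in the text by rule, 28 were nearer 0 by over 1.5 times with no background correction and 15 with an offset of 50, KRT9 for example at 1.08 and 1.39 on the log2 scale, against 2.34. An exact permutation test of a single gene within treatments has 9 arrangements and cannot give a p below 0.111.

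The 10 largest rises among the genes that met the naming rule given below were 3.12-fold to 5.07-fold. PMEPA1, a membrane protein that restrains TGF-beta signalling, had a log2 intensity of 8.51 in vemurafenib 2, against 6.07 and 5.34 in the other vemurafenib samples, and 8.24 in DMSO 2, against 6.06 and 7.004 in the other DMSO samples. THBS1, the matrix glycoprotein thrombospondin 1, had 10.79 in vemurafenib 2, against 8.87 and 9.34, and 11.01 in DMSO 2, against 9.11 and 8.64. Both samples numbered 2 stood above both of their counterparts for these genes, which the rule for the largest rises required. The log2 differences were 2.26 ± 0.36 (SE) for PMEPA1 and 1.91 ± 0.22 for THBS1, which is 4.79-fold and 3.76-fold (limma adjusted p = 0.0164 and 0.00749). GAL, the neuropeptide galanin, rose 3.54-fold (adjusted p = 0.00351), and IL24, a cytokine of the interleukin 10 family, 3.12-fold (adjusted p = 0.00514). FOS, an AP-1 subunit, rose 3.49-fold, NGFR, a neurotrophin receptor of neural crest cells, 3.23-fold, and CDCA5, the cohesin regulator sororin, 3.22-fold. FHDC1, a formin-family protein, rose 3.52-fold, and the keratins KRT9 and KRT14 rose 5.07-fold and 3.20-fold.

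Several of these rises had a wider gap in vemurafenib than in DMSO. FOS had 8.23 in vemurafenib 2, against 6.04 and 5.49, and 6.40 in DMSO 2, against 5.07 and 5.44. The FOS difference was thus 2.46 on the log2 scale in vemurafenib, which is the value left without DMSO 2, and 1.14 in DMSO, the value without vemurafenib 2. CDCA5 had 9.43 in vemurafenib 2, against 7.23 and 6.94, and 11.44 in DMSO 2, against 10.47 and 10.36, a difference of 2.35 in vemurafenib and 1.03 in DMSO. FHDC1 had 7.35 in vemurafenib 2, against 4.999 and 4.71, and 5.32 in DMSO 2, against 4.22 and 4.14, a difference of 2.49 and 1.14. The 2 differences were 2.26 and 1.12 for NGFR, 2.26 and 1.10 for KRT14 and 3.11 and 1.57 for KRT9. The groups did not overlap within a treatment for any of these 6 genes, which the rule that named them required. The drug-by-number difference, which tests whether the gap differs between the treatments, passed adjustment for none of them (0 of 12036 genes in limma's test, smallest adjusted p 0.127).

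KRT9 had 7.59 in vemurafenib 2, against 4.34 and 4.62, and 5.82 in DMSO 2, against 4.19 and 4.32. It was detected on both arrays numbered 2 and on 1 of the other 4, and KRT14 on 2 of the other 4. Of 10 keratinocyte markers, 9 had a probe, and KRT5, KRT1, DSG3, IVL and PKP1 were detected on no array. KRT14 was the 1 of 4 measured markers that rose, where 3.72% of all genes rose. The summed signal of the 9 keratinocyte markers was 1458 to 1842 intensity units in the samples numbered 2 and 1174 to 1658 in the others. Their part in the result was not tested. A second IL24 probe, detected on 1 of the 2 arrays numbered 2, gave a smaller difference of 0.67 (adjusted p = 0.142). THBS1, GAL and IL24 passed without each sample in turn. The other 7 rises each lost their call without vemurafenib 1 (adjusted p of 0.0539 to 0.0584). Without vemurafenib unnumbered, PMEPA1, FHDC1, FOS, NGFR and CDCA5 also missed it (0.0507 to 0.0587), and without vemurafenib 2, PMEPA1, FOS, NGFR, CDCA5 and KRT14 (0.0568 to 0.0842).

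The 10 largest falls among the genes that met the naming rule were at least 5.17-fold. CCND2, cyclin D2, which drives entry into the cell cycle, was detected on all 4 other arrays and on neither array numbered 2. Its log2 intensity was 4.47 in vemurafenib 2, against 7.17 and 6.95, and 4.47 in DMSO 2, against 7.33 and 7.22, a fall of at least 6.49-fold (limma adjusted p = 0.00179). Probes entered the test by detection, this one through those 4 arrays alone, so its p-value is not independent of that filter. A second CCND2 probe fell 2.00-fold (adjusted p = 0.0293). TXNIP, which limits glucose uptake and is induced by glucose, had 9.61 in vemurafenib 2, against 11.89 and 12.24, and 7.18 in DMSO 2, against 9.998 and 9.76. TXNIP thus fell 5.97-fold (log2 difference -2.58 ± 0.17 SE, adjusted p = 0.00207).

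IGFBP5, which binds insulin-like growth factors, fell most of these genes by the fitted value and unequally in the treatments. It had 10.49 in vemurafenib 2, against 12.16 and 11.94, and 6.25 in DMSO 2, against 10.62 and 10.68, a log2 difference of -2.98 ± 0.53 (SE; limma adjusted p = 0.0215). The gap between the treatments, 2.84 ± 0.29 on the log2 scale for IGFBP5, did not pass adjustment (0.127). RAB26, a GTPase of secretory vesicles, fell 6.93-fold, SCNN1A, a subunit of the epithelial sodium channel, 6.69-fold, MME, the membrane peptidase neprilysin, 6.17-fold, and C1QTNF1, a secreted C1q-related protein, 5.96-fold. DEPP1, a FOXO target linked to autophagy, fell 6.23-fold and the zinc finger factor ZNF467 5.59-fold. Both of these were detected on 1 of the 2 arrays numbered 2, so their fold changes are approximate. SPRY1, a feedback inhibitor of ERK signalling, fell 5.17-fold (adjusted p = 0.0164), with 6.42 in vemurafenib 2, against 9.56 and 9.86, and 7.66 in DMSO 2, against 9.22 and 9.001. CCND2, TXNIP, RAB26, SCNN1A, MME, C1QTNF1, DEPP1 and ZNF467 passed without each sample in turn. IGFBP5 and SPRY1 missed the threshold without vemurafenib unnumbered (0.0572 and 0.0533) and without vemurafenib 1 (0.0560 and 0.0553).

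**Figure D1:**
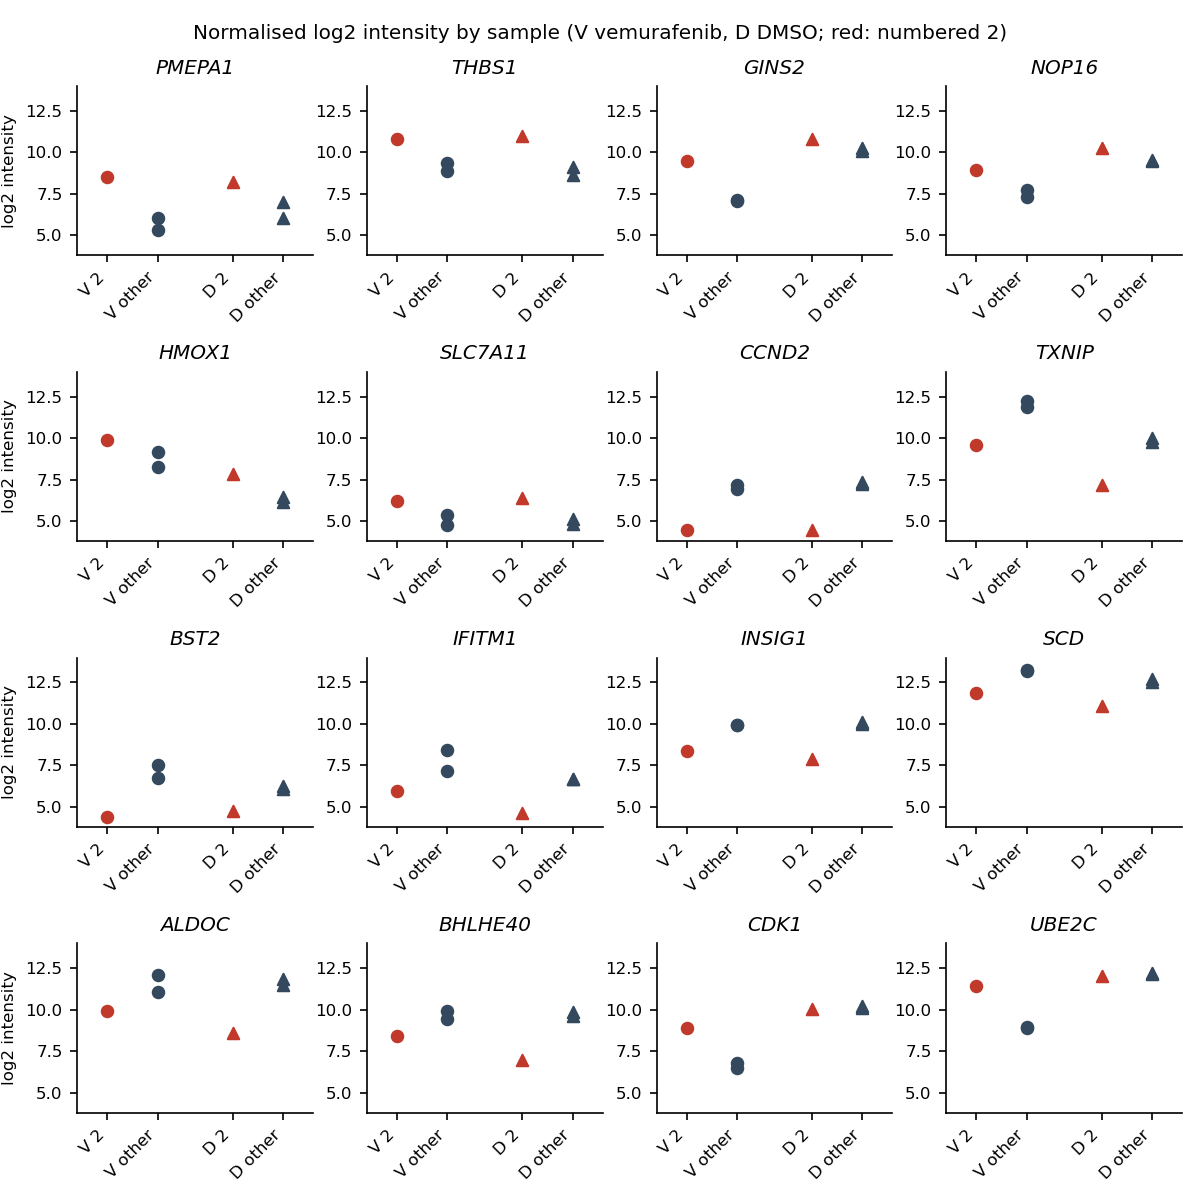
Normalised log2 intensity of 16 genes in each of the 6 samples; V is vemurafenib, D is DMSO, circles and triangles mark the treatments, and red marks the samples numbered 2. In the panels of PMEPA1, CCND2, TXNIP and INSIG1 the red point of each treatment stands apart from its 2 dark counterparts, while for UBE2C it does so in vemurafenib (11.40, against 8.97 and 8.91) and in DMSO lies close to them (12.03, against 12.19 and 12.16).

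Genes of DNA replication were higher in the samples numbered 2 under both treatments. Of 48 S phase genes that were measured, 20 rose, 0 fell and 28 did not pass, where 3.72% of all genes rose. The median difference was 0.74 on the log2 scale, 0.84 in vemurafenib and 0.52 in DMSO, against 0.01 over all genes. GINS2, a subunit of the replicative helicase, had a log2 intensity of 9.47 in vemurafenib 2, against 7.08 and 7.10, and 10.80 in DMSO 2, against 10.26 and 10.09. EXO1, a repair and replication nuclease, had 7.14 in vemurafenib 2, against 4.79 and 4.98, and 9.26 in DMSO 2, against 8.58 and 8.34. Both genes stood higher in the sample numbered 2 of each treatment, and by these probes the gap was wider with the drug. The log2 differences were 1.503 ± 0.35 (SE) for GINS2 (limma adjusted p = 0.0413, and 0.0752 with the block of 3 levels) and 1.53 ± 0.30 for EXO1 (0.0284, and 0.0574 with the block). E2F2, an S phase transcription factor, rose 2.71-fold (0.0293, and 0.0519 with the block), by 2.08 on the log2 scale in vemurafenib and 0.80 in DMSO, and UHRF1, which carries DNA methylation through replication, 2.31-fold (0.0190). A second EXO1 probe gave a smaller difference of 0.64 (0.0442). Its gap was wider in DMSO (0.82) than in vemurafenib (0.46), so the 2 EXO1 probes disagree on that point.

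The letters TTTNNCGC, a form of the E2F element read on both strands, occurred in the promoters of 23 of 42 matched members of this list (54.8%), in 10 of the 17 matched members that rose (58.8%), in 10.5% of the 9666 matched genes tested and in 6.90% of 27305 promoters of the same length. The promoters, from RefSeq on build GRCh38.p14, run from 250 bases before to 50 after the start site. The windows below were picked, by size of difference, from called members that carry a match before the start site. Members without such a match were passed over, so the windows hold one by choice. They are printed 5′ to 3′ on the strand of the gene, all lie before the start site, and capitals mark the match. RFC3, a clamp loader subunit with a log2 difference of 1.12, was chosen after its value was seen, and it missed the threshold without vemurafenib 2 (limma adjusted p = 0.0627) and vemurafenib 1 (0.0552). The positions are chr16:85688955-85689025 on the minus strand for GINS2, chr1:23531234-23531311 on the minus strand for E2F2, chr19:4909447-4909500 on the plus strand for UHRF1 and chr13:33818054-33818141 on the plus strand for RFC3.
GINS2: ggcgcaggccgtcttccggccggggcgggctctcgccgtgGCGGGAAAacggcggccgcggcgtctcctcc
E2F2: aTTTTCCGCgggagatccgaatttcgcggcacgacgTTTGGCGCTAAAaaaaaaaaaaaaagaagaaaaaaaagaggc
UHRF1: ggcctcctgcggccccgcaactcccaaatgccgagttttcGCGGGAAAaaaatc
RFC3: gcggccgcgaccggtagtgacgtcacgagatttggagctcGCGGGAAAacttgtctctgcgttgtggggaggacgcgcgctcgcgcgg

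The count of rising S phase genes rested on few samples. It was 2 without vemurafenib 2, 5 without vemurafenib unnumbered, 0 without vemurafenib 1, 17 without DMSO 2, 9 without DMSO unnumbered, 6 without DMSO 1 and 5 with the block of 3 levels, against 32 with median centring. GINS2, EXO1, E2F2 and UHRF1 each lost their call without vemurafenib 2 (adjusted p of 0.0745 to 0.124), without vemurafenib unnumbered (0.0569 to 0.103) and without vemurafenib 1 (0.0653 to 0.114), and GINS2 and EXO1 also without DMSO 1 (0.0655 and 0.0531). Of 23 measured genes of nucleotide synthesis, 4 rose and 19 did not pass, with a median of 0.40, where 3.72% of all genes rose. RRM2 and RRM1, subunits of ribonucleotide reductase, rose 2.35-fold and 1.59-fold (limma adjusted p = 0.0218 and 0.0389, and 0.0763 for RRM1 with the block). CTPS1, which makes CTP, rose 2.06-fold (0.0167) and TYMS, thymidylate synthase, 1.82-fold (0.0225). Without vemurafenib 2 or vemurafenib 1 the count was 0, and it was 2 without vemurafenib unnumbered, DMSO unnumbered or DMSO 1 and 1 without DMSO 2. RRM2 missed the threshold without each vemurafenib sample (0.0646 to 0.0944), CTPS1 without DMSO 2, vemurafenib 1 and vemurafenib 2 (0.0511 to 0.0757), TYMS without all but vemurafenib unnumbered (0.0535 to 0.0991) and RRM1 without each of the 6 (0.0613 to 0.168).

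**Figure D2:**
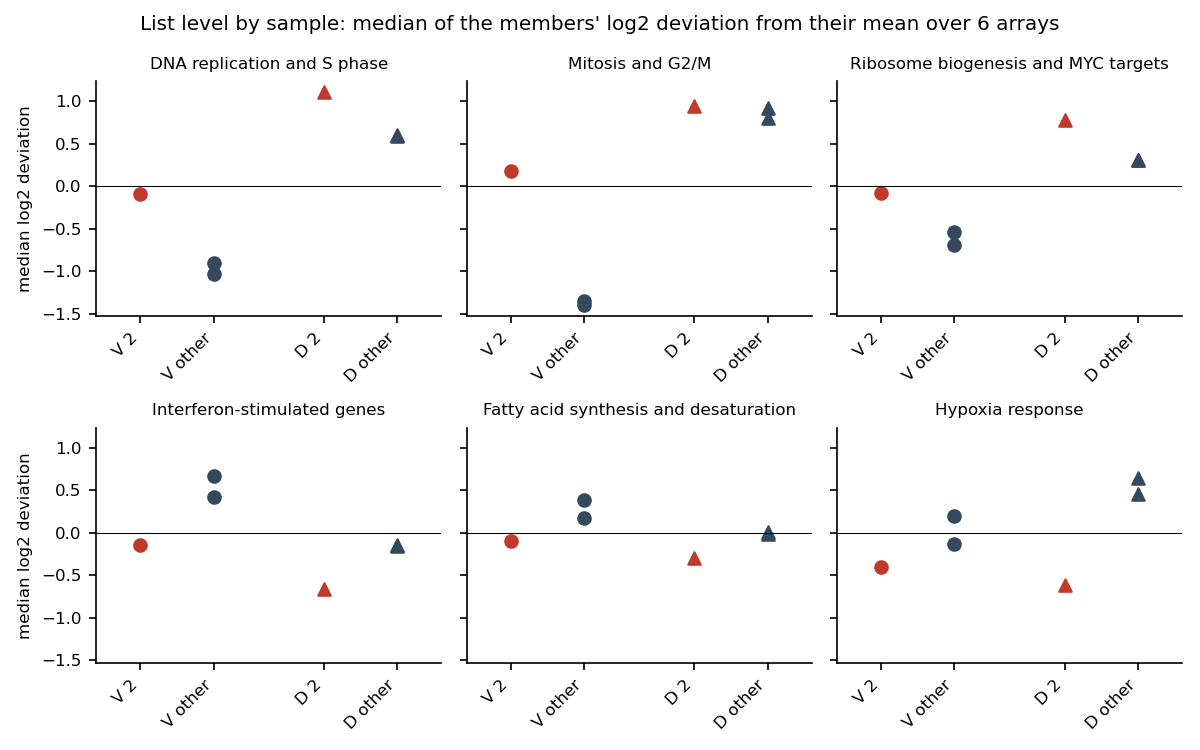
Level of 6 gene lists in each sample, as the median over members of the log2 deviation from the member's mean over 6 arrays; V is vemurafenib, D is DMSO, and red marks the samples numbered 2. For mitosis, vemurafenib 2 is at 0.18, against -1.40 and -1.35 in the other vemurafenib samples, and DMSO 2 at 0.94, against 0.92 and 0.80 in the other DMSO samples, while for S phase and ribosome biogenesis the red point is higher under both treatments.

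All 59 measured genes of mitosis and G2/M had a positive difference, with a median of 1.56 in vemurafenib and 0.15 in DMSO on the log2 scale. In the test over both treatments 2 of the 59 rose, a share no higher than the 3.72% of all genes that rose. These were FOXM1, the factor that induces mitotic genes, with 8.48 in vemurafenib 2, against 6.92 and 6.47, and 9.11 in DMSO 2, against 8.28 and 7.97 (2.61-fold, limma adjusted p = 0.0180), and the spindle kinesin KIF11 (2.06-fold, adjusted p = 0.0405, and 0.0757 with the block of 3 levels). The count was 47 without DMSO 2, where the comparison rests on vemurafenib, and 0 without vemurafenib 2, vemurafenib unnumbered or vemurafenib 1. It was 3 without DMSO unnumbered, 1 without DMSO 1, 1 with the block and 17 with median centring. FOXM1 lost its call without vemurafenib 2 (0.0899), unnumbered (0.0520) and 1 (0.0553), and KIF11 without these (0.204, 0.0874 and 0.108) and DMSO 1 (0.0764).

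The unequal gap shows in single genes, of which 2 are given here, chosen after their values were seen. UBE2C, an enzyme that marks mitotic cyclins for destruction, had 11.40 in vemurafenib 2, against 8.97 and 8.91, and 12.03 in DMSO 2, against 12.19 and 12.16. CDK1, the mitotic kinase, had 8.90 in vemurafenib 2, against 6.46 and 6.79, and 10.05 in DMSO 2, against 10.20 and 10.09. Vemurafenib 2 lay between the other vemurafenib samples and the DMSO samples for both genes, and DMSO 2 was slightly below the other DMSO samples. The drug-by-number difference, which is the drug effect in the samples numbered 2 minus that in the others, was 2.61 ± 0.27 (SE) for UBE2C and 2.37 ± 0.31 for CDK1 on the log2 scale, and neither passed adjustment (limma adjusted p = 0.127 and 0.169). Over the list, the median difference between vemurafenib and DMSO was -0.71 between the samples numbered 2 and -2.18 between the others. For S phase genes these medians were -1.33 and -1.497. In these bulk samples, fewer dividing cells and less RNA per cell cannot be told apart.

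Across all genes, the drug-by-number difference passed for 0 of 12036 (limma, smallest adjusted p 0.127), with 1444 at an unadjusted p under 0.05, of which 770 were above 0 (6.40%) and 674 below (5.60%). Among the 59 mitosis genes, 49 had an unadjusted p under 0.05 and a difference above 0, and 0 below. The count over all genes depended on processing. It was 257 with limma's trend and robust options, 221 with no background correction, 165 with the deposited log2 values, 159 with an offset of 50 and 2 with median centring. It was 64 without DMSO 1, 24 without DMSO unnumbered, 0 without vemurafenib unnumbered and 0 without vemurafenib 1. In the first 4 of these, 41, 37, 35 and 34 mitosis genes passed, all with a difference above 0.

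**Figure D3:**
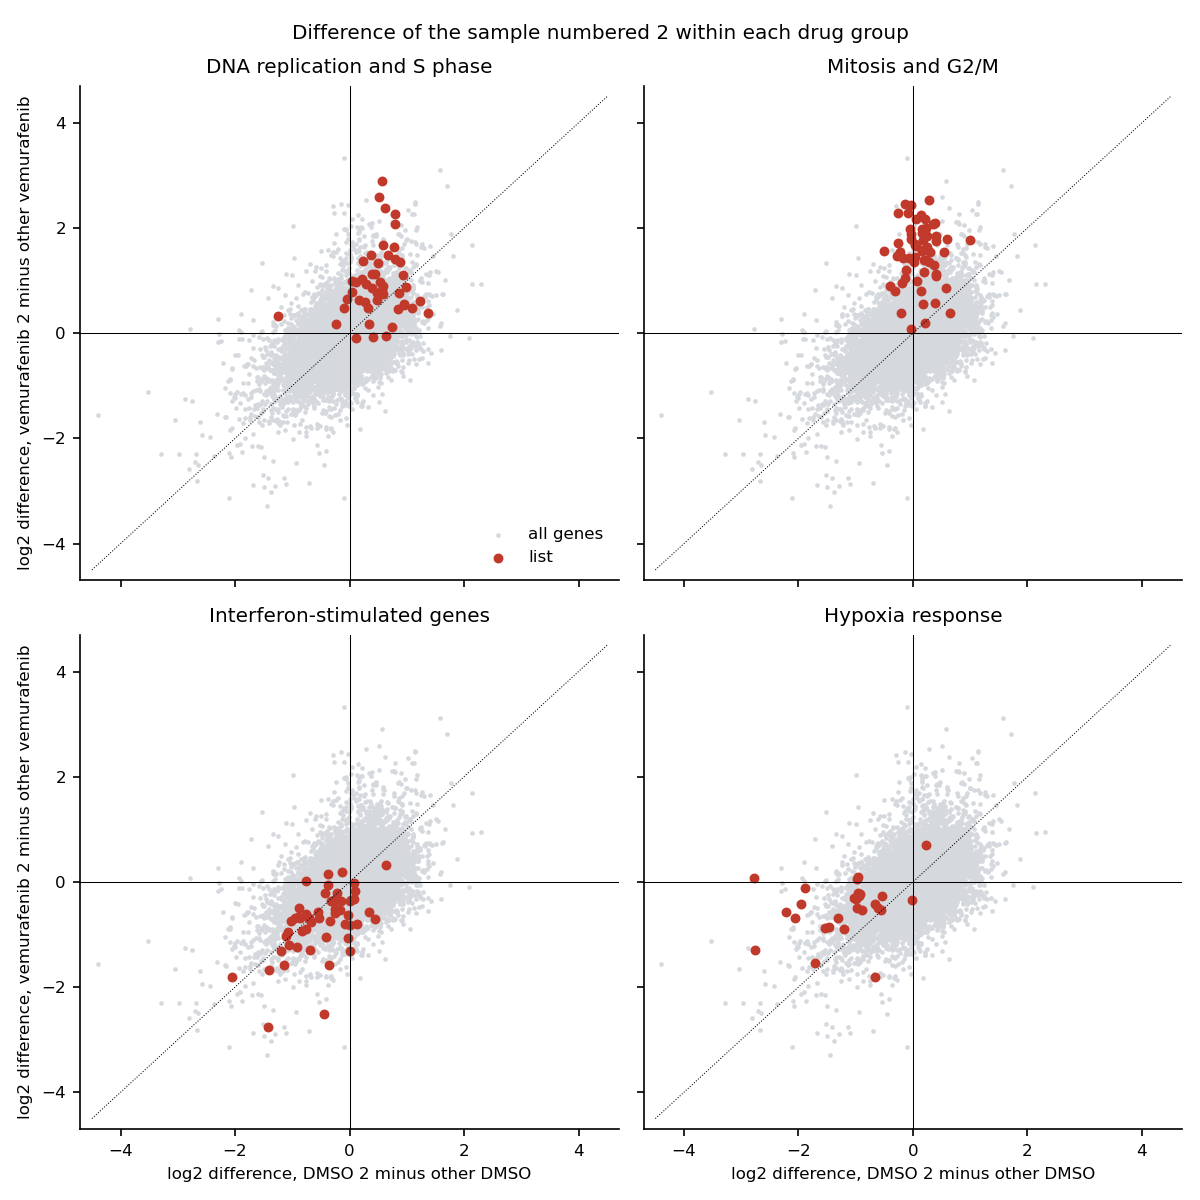
Log2 difference of the sample numbered 2 from the mean of the other 2 samples, in DMSO (horizontal) and in vemurafenib (vertical), for all genes in grey and 1 list in red per panel; the dotted line marks equal differences. Mitosis genes stand high in vemurafenib (median 1.56) and near 0 in DMSO (median 0.15), and genes of the hypoxia response lie further from 0 in DMSO (median -0.97) than in vemurafenib (median -0.42).

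Ribosome assembly genes were higher under both treatments. Of 38 measured genes of ribosome biogenesis or of the MYC program, 16 rose, 0 fell and 22 did not pass, where 3.72% of all genes rose, and all 38 had a positive difference (median 0.61, or 0.64 in vemurafenib and 0.47 in DMSO on the log2 scale). NOP16, a nucleolar protein of the large subunit pathway, had 8.96 in vemurafenib 2, against 7.76 and 7.30, and 10.25 in DMSO 2, against 9.49 and 9.52 (log2 difference 1.09 ± 0.21 SE, limma adjusted p = 0.0261). LYAR, a nucleolar growth regulator, rose 1.97-fold (0.0379, and 0.0706 with the block of 3 levels), and BYSL and PNO1, which act in small subunit assembly, 1.95-fold (0.0170) and 1.91-fold (0.0150). The count of rises was 5 with the block, 0 without vemurafenib 2 or vemurafenib 1, 4 without vemurafenib unnumbered, DMSO 2 or DMSO unnumbered and 2 without DMSO 1. These 4 genes each lost their call without vemurafenib 2 (0.0520 to 0.183) and vemurafenib 1 (0.0552 to 0.105). NOP16 and LYAR also lost it without vemurafenib unnumbered (0.0613 and 0.0888) and DMSO 1 (0.0508 and 0.0542), LYAR without DMSO unnumbered (0.0662) and PNO1 without DMSO 2 (0.0542). MYC itself is in the list of ERK-driven genes and did not pass (log2 difference -0.53, adjusted p = 0.0545).

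Histone and cell cycle inhibitor genes gave fewer calls, where 3.72% of all genes rose and 6.34% fell. Of 22 measured replication-dependent histone genes of 42 listed, 3 fell and 19 did not pass, with a median of -0.30 on the log2 scale. H2AC18 fell 2.24-fold (limma adjusted p = 0.0160), the linker histone H1-2 2.06-fold (0.0314, and 0.0611 with the block of 3 levels), and H2AC14, detected on neither array numbered 2, at least 1.56-fold (0.0239). These genes belong to a family of near copies, and which copy a probe reads is uncertain. H2AC14 entered the test through the other arrays alone, so its call is not independent of the detection filter. Of 27 measured genes of cell cycle arrest and quiescence, 1 rose, 3 fell and 23 did not pass. CDKN1C, a kinase inhibitor, rose 2.49-fold (0.0206), while MXI1, an antagonist of MYC, and CCNG2, a cyclin of non-dividing cells, fell 3.09-fold (0.0141) and 2.82-fold (0.0205) beside TXNIP. MXI1 was detected on 1 of the 2 arrays numbered 2, and other probes of MXI1 and CCNG2 gave smaller differences (-0.22 for MXI1, and -0.96 and -0.19 for CCNG2). By its brightest probe, CCNG2 had 5.96 in vemurafenib 2, against 6.90 and 6.82, and 4.69 in DMSO 2, against 6.67 and 6.89. Its difference was thus -0.90 without DMSO 2 and -2.09 without vemurafenib 2. The CCNG2 probe at -0.96 had the wider gap in vemurafenib (-1.15, against -0.77 in DMSO). The CCNG2 probe at -0.19 had 0.29 in vemurafenib and -0.67 in DMSO. The histone calls were 0 without vemurafenib 2, vemurafenib 1 or DMSO 2 and 1 without DMSO 1. H2AC18 lost its call without those first 3 samples (0.0520 to 0.0675), H1-2 without all but DMSO unnumbered (0.0569 to 0.142) and H2AC14 without all but vemurafenib unnumbered (0.0584 to 0.115). CCNG2 missed the threshold without DMSO 2 (0.0612), vemurafenib unnumbered (0.0535) and vemurafenib 1 (0.0572), and CDKN1C missed the threshold without each vemurafenib sample (0.104, 0.0607 and 0.0662 for samples 2, unnumbered and 1).

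**Figure D4:**
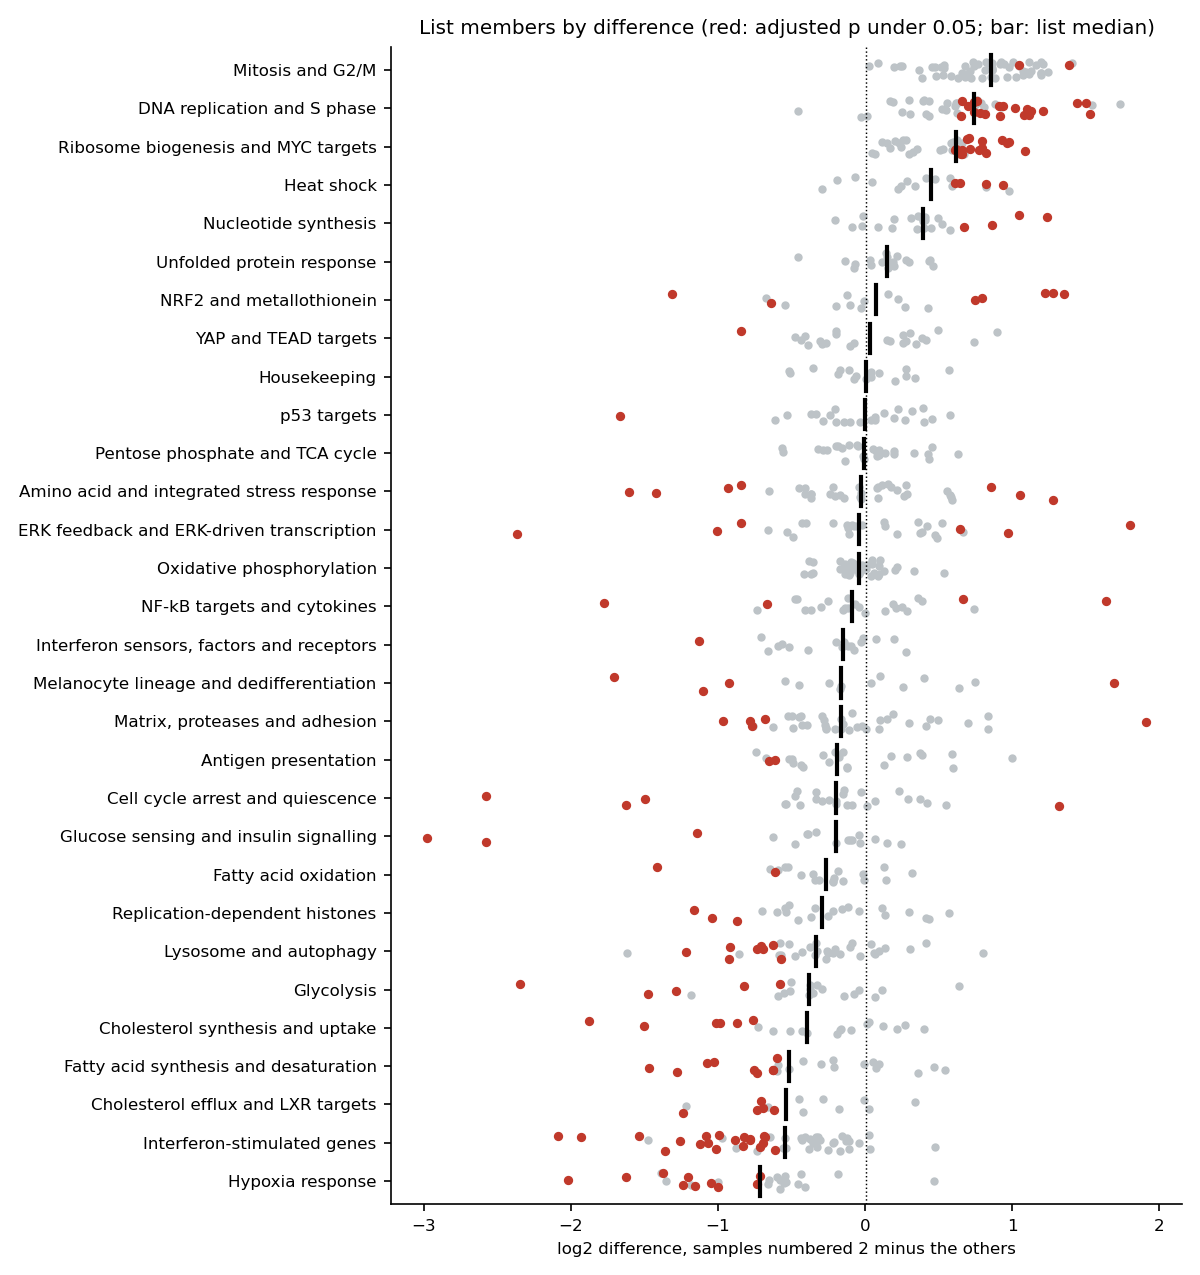
Members of 30 gene lists by their log2 difference between the samples numbered 2 and the others, with treatment as a covariate; red points passed at a limma adjusted p under 0.05, grey points did not, and the black bar is the list's median. S phase, ribosome and mitosis genes lie mostly to the right of 0 (medians 0.74, 0.61 and 0.86), and interferon-stimulated, fatty acid synthesis and hypoxia genes mostly to the left (medians -0.54, -0.52 and -0.71).

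Interferon-stimulated genes were lower in both samples numbered 2. Of 53 measured, 20 fell, 0 rose and 33 did not pass, where 6.34% of all genes fell, and 50 had a negative difference (median -0.54, or -0.68 in vemurafenib and -0.38 in DMSO on the log2 scale). BST2, tetherin, which holds budding viruses at the cell surface, was detected on all 4 other arrays and on neither array numbered 2. Its log2 intensity was 4.38 in vemurafenib 2, against 7.49 and 6.77, and 4.73 in DMSO 2, against 6.07 and 6.23, a fall of at least 4.13-fold (limma adjusted p = 0.0161). BST2 entered the test through those 4 arrays alone, so its p-value is not independent of the detection filter. IFITM1, which blocks viral entry, had 5.99 in vemurafenib 2, against 8.41 and 7.18, and 4.63 in DMSO 2, against 6.66 and 6.70. IFITM1 thus fell 3.82-fold (adjusted p = 0.0166). GBP2, a guanylate-binding protein induced by interferon gamma, fell 2.91-fold (log2 difference -1.54 ± 0.15 SE, adjusted p = 0.00530) and OAS2, a sensor of double-stranded RNA, 2.57-fold (adjusted p = 0.0143).

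The core of the interferon-stimulated response element (GAAA, any 2 bases, then GAAA, on either strand) occurred in the promoters of 28 of 41 matched members (68.3%), in 10 of the 15 matched members that fell (66.7%), in 2.81% of the matched genes tested and in 3.65% of 27305 promoters. The windows below are from the same RefSeq promoters and were picked in the same way, from called members that carry a match. Members without such a match were passed over, so the windows hold one by choice. Capitals mark the match, and all lie before the start site. IFIT1, which binds viral RNA, and IFIH1, the sensor MDA5, had log2 differences of -1.26 and -1.08 and were chosen after their values were seen. They missed the threshold without vemurafenib 2 (limma adjusted p = 0.0942 and 0.0624), IFIT1 also without DMSO 2 (0.0767) and IFIH1 without vemurafenib 1 (0.0538). The positions are chr19:17405705-17405794 on the minus strand for BST2, chr11:313960-314039 on the plus strand for IFITM1, chr10:89392480-89392569 on the plus strand for IFIT1 and chr2:162318685-162318745 on the minus strand for IFIH1.
BST2: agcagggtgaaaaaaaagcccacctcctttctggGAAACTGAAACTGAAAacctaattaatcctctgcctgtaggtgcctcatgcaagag
IFITM1: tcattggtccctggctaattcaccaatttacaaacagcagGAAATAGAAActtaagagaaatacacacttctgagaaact
IFIT1: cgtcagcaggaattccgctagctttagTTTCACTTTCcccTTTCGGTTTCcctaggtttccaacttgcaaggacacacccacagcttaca
IFIH1: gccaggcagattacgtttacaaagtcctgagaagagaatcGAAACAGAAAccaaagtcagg

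Of 18 measured sensors, factors and receptors upstream in the interferon pathway, 1 fell and 17 did not pass (median -0.15 on the log2 scale), a share near the 6.34% of all genes that fell. IRF9, the DNA-binding subunit of the interferon-activated complex, had 9.03 in vemurafenib 2, against 10.42 and 9.91, and 6.81 in DMSO 2, against 7.78 and 8.09 (2.19-fold lower, limma adjusted p = 0.0182). Of 24 measured genes of antigen presentation, 2 fell and 22 did not pass, which is also near 6.34%. The immunoproteasome subunit PSMB8 fell 1.57-fold (0.0355, and 0.0706 with the block of 3 levels) and the proteasome activator PSME1 1.53-fold (0.0494, and 0.0909 with the block). Of the other probes of these genes, 1 of 3 for PSMB8 and 0 of 1 for PSME1 passed. Of 26 measured NF-kB targets and cytokines, 2 rose, 2 fell and 22 did not pass, where 3.72% of all genes rose and 6.34% fell. IL1B, an inflammatory cytokine, had 5.92 in vemurafenib 2, against 7.59 and 7.65, and 6.04 in DMSO 2, against 7.89 and 7.90. It fell 3.43-fold (0.00351) in the group where IL24 rose, while BCL3, a nuclear cofactor of NF-kB, fell 1.58-fold (0.0390, and 0.0704 with the block) and the survival protein BIRC2 rose 1.59-fold (0.0335, and 0.0678 with the block). A second BIRC2 probe did not pass (log2 difference 0.51, limma adjusted p = 0.228), with -0.03 in vemurafenib and 1.06 in DMSO.

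The 20 falling interferon-stimulated genes were 12 with the block of 3 levels. The count was 2 without vemurafenib 2, 8 without vemurafenib unnumbered, 6 without vemurafenib 1, 7 without DMSO 2, 9 without DMSO unnumbered and 8 without DMSO 1. GBP2 and IL1B passed without each sample in turn. BST2, IFITM1, OAS2 and IRF9 missed the threshold without vemurafenib 2 (limma adjusted p of 0.0636, 0.0642, 0.0676 and 0.0759), IFITM1 and IRF9 also without DMSO 2 (0.0767 and 0.0698), and BST2 without vemurafenib 1 (0.0554). PSMB8, PSME1, BCL3 and BIRC2 missed it without each of the 6 samples (0.0572 to 0.220). Of 10 leukocyte markers, 9 had a probe and 4 were measured, of which 2 fell, where 6.34% of all genes fell. CD68, a lysosomal protein of macrophages, fell 2.14-fold (0.0218), and CSF1R, the receptor of macrophage growth factor, at least 1.56-fold (0.0445, and 0.0823 with the block), while PTPRC, CD3E, MS4A1 and LAPTM5 were detected on no array. Their summed signal was 574 to 1031 intensity units in the samples numbered 2 and 1241 to 1644 in the others, and their part in the result was not tested. CSF1R entered the test through the other arrays alone, so its call is not independent of the detection filter. CD68 had by far the highest signal of these markers and makes up most of the sum. Its log2 intensity was 9.74 in vemurafenib 2, against 10.46 and 10.40, and 8.51 in DMSO 2, against 9.99 and 10.02. CD68 passed without vemurafenib 2 and missed the threshold without any other sample (0.0505 to 0.0911), and CSF1R missed it without each of the 6 (0.0758 to 0.203). A second CD68 probe did not pass (log2 difference -0.31, adjusted p = 0.240).

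Lipid synthesis genes were mostly lower under both treatments, the cholesterol genes less so in vemurafenib. Of 21 measured genes of cholesterol synthesis and uptake, 6 fell, 0 rose and 15 did not pass, where 6.34% of all genes fell. The median difference was -0.40 on the log2 scale, or -0.20 in vemurafenib and -0.40 in DMSO. In vemurafenib 8 of the 21 had a positive difference, and in DMSO 5. INSIG1, which holds SREBP in the endoplasmic reticulum and is itself an SREBP target, had 8.34 in vemurafenib 2, against 9.96 and 9.93, and 7.88 in DMSO 2, against 10.09 and 9.98. INSIG1 thus fell 3.68-fold (limma adjusted p = 0.00491). The synthesis enzymes MSMO1, DHCR7 and HMGCS1 fell 2.83-fold (0.00923), 2.02-fold (0.0164) and 1.98-fold (0.0471, and 0.0855 with the block of 3 levels). For HMGCS1 the samples numbered 2 had 8.18 in vemurafenib, against 8.57 and 8.69, and 8.02 in DMSO, against 9.64 and 9.44, so the gap was wider in DMSO. Another MSMO1 probe gave a smaller difference (-0.38, adjusted p = 0.217).

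Fatty acid enzymes followed the same direction. Of 23 measured genes of fatty acid synthesis and desaturation, 9 fell, 0 rose and 14 did not pass, where 6.34% of all genes fell. The median difference was -0.52 on the log2 scale, or -0.40 in vemurafenib and -0.48 in DMSO. SCD, the main desaturase of stearate, had 11.86 in vemurafenib 2, against 13.25 and 13.20, and 11.06 in DMSO 2, against 12.73 and 12.55 (2.77-fold lower, limma adjusted p = 0.00530). ACSS2, which makes acetyl-CoA from acetate, fell 2.43-fold (0.00859), the desaturase SCD5 2.10-fold (0.0130) and the phosphatidate phosphatase LPIN1 2.04-fold (0.0170). Another ACSS2 probe gave a smaller difference (-0.23, adjusted p = 0.397). The genes listed for cholesterol efflux and LXR did not move the other way, and sterol export itself was not measured. Of 14 measured members of this list, 5 fell, 0 rose and 9 did not pass (median -0.53), beside the same 6.34% of all genes. NR1H3, the factor LXR alpha, had 9.18 in vemurafenib 2, against 10.29 and 10.24, and 7.76 in DMSO 2, against 9.04 and 9.27 (2.36-fold lower, 0.00992). The lysosomal cholesterol carriers NPC1 and NPC2 and the lysosomal lipase LIPA fell 1.66-fold, 1.62-fold and 1.64-fold (0.0235, 0.0310 and 0.0417, or 0.0553, 0.0649 and 0.0811 with the block of 3 levels).

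Of 20 measured genes of fatty acid oxidation, 2 fell and 18 did not pass (median -0.27), where 6.34% of all genes fell. PDK4, the kinase that closes pyruvate dehydrogenase when fat is burned, fell 2.66-fold (limma adjusted p = 0.00811), and ETFB, an electron carrier of the pathway, 1.53-fold (0.0420, and 0.0778 with the block of 3 levels). INSIG1, MSMO1, SCD, ACSS2, NR1H3 and PDK4 passed without each sample in turn. DHCR7 lost its call without DMSO 2 (0.0721) and vemurafenib 1 (0.0553), SCD5 without vemurafenib 2 (0.0564) and vemurafenib 1 (0.0536), and LPIN1 without vemurafenib 2 (0.0655), vemurafenib 1 (0.0559) and DMSO 2 (0.0685). HMGCS1 passed without vemurafenib 2 and missed the threshold without any other sample (0.0770 to 0.238), and NPC1, NPC2, LIPA and ETFB missed the threshold without each of the 6 (0.0572 to 0.188). Calls in fatty acid synthesis were 4 with the block, and 2, 4, 2, 3, 4 and 4 without vemurafenib 2, unnumbered and 1 and DMSO 2, unnumbered and 1. In the same order the cholesterol calls were 4, 4, 2, 2, 3 and 3, and those of efflux 1, 1, 1, 1, 2 and 1, with 1 under the block. The sterol regulatory element letters TCACNCCAC were found in 1 of 19 matched promoters of the cholesterol list (5.26%), in 0 of 6 matched members that fell, in 1.10% of the matched genes tested and in 1.15% of all promoters.

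Genes of glycolysis and of the hypoxia response were lower as well. Of 22 measured glycolysis genes, 5 fell, 0 rose and 17 did not pass, where 6.34% of all genes fell. The median difference was -0.38 on the log2 scale, or -0.34 in vemurafenib and -0.53 in DMSO. ALDOC, a brain-type aldolase, had 9.93 in vemurafenib 2, against 11.08 and 12.09, and 8.61 in DMSO 2, against 11.82 and 11.49 (5.09-fold lower, limma adjusted p = 0.0164). Enolase 2, ENO2, fell 2.78-fold (0.0324, and 0.0597 with the block of 3 levels), the glucose transporter SLC2A3 2.44-fold (0.0189) and PFKL, a phosphofructokinase, 1.77-fold (0.0215). ENO2 had 7.64 in vemurafenib 2, against 8.14 and 8.86, and 7.38 in DMSO 2, against 9.59 and 9.36, so its difference was -0.86 without DMSO 2 and -2.09 without vemurafenib 2. The abundant housekeeping enzyme GAPDH is in this list and did not pass, as given above. Of 27 measured genes of the hypoxia response, 10 fell, 0 rose and 17 did not pass, beside the same 6.34% of all genes. A negative difference was found for 26 of them (median -0.71, or -0.42 in vemurafenib and -0.97 in DMSO).

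BHLHE40, a repressor induced by low oxygen, had 8.39 in vemurafenib 2, against 9.93 and 9.44, and 6.97 in DMSO 2, against 9.83 and 9.61. It fell 4.06-fold (limma adjusted p = 0.0164). MXI1, an antagonist of MYC that hypoxia induces, fell as given above, and ANKRD37, a small ankyrin protein, and the vasodilator peptide ADM fell 2.59-fold and 2.36-fold (0.0470 and 0.0309, or 0.0823 and 0.0611 with the block of 3 levels). For ANKRD37 the samples numbered 2 had 7.39 in vemurafenib, against 7.72 and 8.43, and 7.26 in DMSO, against 9.51 and 9.12, while for ADM they had 8.44 in vemurafenib, against 10.15 and 10.34, and 10.39 in DMSO, against 11.16 and 10.95. The wider gap was thus in DMSO for ANKRD37 and in vemurafenib for ADM. The list's median difference between vemurafenib and DMSO was 0.27 between the samples numbered 2 and -0.51 between the others. The drug-by-number difference was above 0 for 25 of 27 members, and none passed limma's adjusted test. At an unadjusted p under 0.05 there were 6 members above 0 and 1 below, where 6.40% of all genes were above and 5.60% below.

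Of 17 measured genes of glucose sensing and insulin signalling, 3 fell and 14 did not pass, where 6.34% of all genes fell. Besides TXNIP and IGFBP5 this was PIK3IP1, an inhibitor of PI3-kinase, which was detected on neither array numbered 2 and fell at least 2.21-fold (limma adjusted p = 0.0449, and 0.0792 with the block of 3 levels). Its measured difference was -1.77 in vemurafenib and -0.52 in DMSO. PIK3IP1 entered the test through the other arrays alone, so its call is not independent of the detection filter. Of 48 measured genes of oxidative phosphorylation and 27 of the pentose phosphate pathway and TCA cycle, 0 passed limma's test in either direction, with medians of -0.04 and -0.01 on the log2 scale. At an unadjusted p under 0.05, 1 gene of oxidative phosphorylation was higher and 3 lower, and in the other list 4 were higher and 2 lower. The ATP synthase subunit ATP5F1B had 13.71 in vemurafenib 2, against 13.77 and 13.86, and 13.85 in DMSO 2, against 13.78 and 13.76 (log2 difference -0.02 ± 0.14 SE). COX7C, a subunit of cytochrome oxidase, differed by -0.11 ± 0.15, MDH2, mitochondrial malate dehydrogenase, by 0.08 ± 0.14, and TKT, transketolase, by 0.07 ± 0.16.

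The counts in these lists also moved with single samples. Glycolysis calls were 3, 3, 0, 0, 2 and 3, and hypoxia calls 5, 5, 2, 2, 4 and 5, without vemurafenib 2, unnumbered and 1 and DMSO 2, unnumbered and 1. With the block they were 3 and 4. PDK4 and TXNIP passed without each sample. ALDOC missed the threshold without DMSO 2 (limma adjusted p = 0.0721) and vemurafenib 1 (0.0591), BHLHE40 without vemurafenib unnumbered (0.0532), SLC2A3 without DMSO 2 (0.0792), vemurafenib 2 (0.0741) and vemurafenib 1 (0.0539), and MXI1 without DMSO 2 (0.0561) and vemurafenib 2 (0.0526). ENO2 and ANKRD37 passed without vemurafenib 2 and vemurafenib unnumbered, ADM without DMSO 2 and DMSO 1, PFKL without DMSO 1, and PIK3IP1 without DMSO 2 and DMSO unnumbered, and they missed it otherwise (0.0520 to 0.265).

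Calls among stress genes differed by pathway, beside 3.72% of all genes that rose and 6.34% that fell. Of 18 measured NRF2 targets and metallothioneins, 5 rose, 2 fell and 11 did not pass. HMOX1, heme oxygenase 1, had 9.89 in vemurafenib 2, against 9.16 and 8.29, and 7.83 in DMSO 2, against 6.14 and 6.44 (2.55-fold higher, limma adjusted p = 0.0239). GCLM, which makes glutathione, rose 2.34-fold (0.00915) and SLC7A11, the cystine carrier, 2.43-fold (0.0164), while the metal-binding protein MT1X fell 2.49-fold (0.0176). Of 37 measured genes of the amino acid and integrated stress response, 3 rose, 4 fell and 30 did not pass. The amino acid carrier SLC7A5 had 12.54 in vemurafenib 2, against 11.42 and 11.39, and 12.50 in DMSO 2, against 11.49 and 11.56 (2.07-fold higher, 0.0117). The lipoprotein receptor VLDLR, detected on neither array numbered 2, fell at least 3.05-fold (0.0161), and NUPR1, a stress-induced nuclear protein detected on 1 of them, 2.68-fold (0.0137). VLDLR entered the test through the other arrays alone, so its call is not independent of the detection filter.

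Of 18 measured heat shock genes, 4 rose and 14 did not pass, with a median of 0.45 on the log2 scale, where 3.72% of all genes rose. The chaperone HSPA1A rose 1.92-fold (limma adjusted p = 0.0165), CHORDC1, a partner of HSP90, 1.76-fold (0.0263, and 0.0537 with the block of 3 levels), and the co-chaperones HSPH1 and DNAJB4 1.56-fold and 1.53-fold (0.0395 and 0.0468, or 0.0773 and 0.0895 with the block). HSPA1A has a near-identical copy, HSPA1B, and the signal of each may include the other. Of 19 measured genes of the unfolded protein response 0 passed, with 3 higher and 1 lower at an unadjusted p under 0.05. The chaperone HSP90B1 differed by -0.08 ± 0.20 (SE) and SEC61B, a subunit of the translocon, by 0.22 ± 0.14. Of 24 measured p53 targets, 1 fell, where 6.34% of all genes fell. This was GDF15, a secreted stress cytokine, with 5.63 in vemurafenib 2, against 7.44 and 7.01, and 6.55 in DMSO 2, against 8.26 and 8.32 (3.17-fold lower, 0.00530). Of 37 measured genes of lysosome and autophagy, 8 fell, 0 rose and 29 did not pass (median -0.34), beside the same 6.34% of all genes. WIPI1, an autophagosome protein, fell 2.32-fold (0.0170), the lysosomal protease CTSA 1.90-fold (0.0431, and 0.0777 with the block) and GRN, progranulin, 1.89-fold (0.0170), beside NPC1.

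GCLM and GDF15 passed without each sample in turn. SLC7A5 and NUPR1 missed the threshold without vemurafenib 2 alone (limma adjusted p = 0.0520 and 0.0613). HMOX1 missed it without DMSO 2 (0.119), DMSO unnumbered (just over 0.05), vemurafenib 2 (0.0704) and vemurafenib 1 (0.0643), and SLC7A11, HSPA1A, MT1X and VLDLR without DMSO 2 (0.0616 to 0.0887) and vemurafenib 1 (0.0553 to 0.0584), SLC7A11 also without vemurafenib 2 (0.0557). WIPI1 and GRN missed it without vemurafenib 2 (0.0864 and 0.0798) and vemurafenib 1 (0.0553 and 0.0584), GRN also without vemurafenib unnumbered (0.0504), and CHORDC1, HSPH1, DNAJB4 and CTSA without at least 5 of the 6 samples. The 8 falling lysosome genes were 2 with the block of 3 levels, and 0, 1, 0, 3, 2 and 2 without vemurafenib 2, unnumbered and 1 and DMSO 2, unnumbered and 1. In the same order the rises in the NRF2 list were 1, 4, 1, 1, 2 and 3, and those of heat shock genes 1, 2, 0, 1, 1 and 1.

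Genes downstream of ERK, the kinase that the drug's pathway feeds, were split. Of 30 measured genes of ERK feedback and ERK-driven transcription, 3 rose, 3 fell and 24 did not pass, where 3.72% of all genes rose and 6.34% fell. The list's median difference was -0.04 on the log2 scale. FOS and the cytokine IL11 (1.96-fold, limma adjusted p = 0.0157) were among the rises, and SPRY1 and PHLDA1 (2.01-fold, 0.0225), an ERK-induced survival regulator, among the falls. For IL11 the samples numbered 2 had 6.24 in vemurafenib, against 5.30 and 5.21, and 7.43 in DMSO, against 6.59 and 6.35. For PHLDA1 they had 10.29 in vemurafenib, against 11.73 and 11.43, and 11.14 in DMSO, against 11.80 and 11.92. As for every called gene, neither overlapped between groups within a treatment. Of 24 measured YAP and TEAD targets, 1 fell, the RhoGAP protein DLC1 (1.79-fold, 0.0270, and 0.0596 with the block of 3 levels), a share below the 6.34% of all genes.

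Of 39 measured genes of matrix, proteases and adhesion, 1 rose, THBS1, 4 fell and 34 did not pass, where 3.72% of all genes rose and 6.34% fell. The integrin ITGA3 fell 1.96-fold (limma adjusted p = 0.0341), the laminin LAMA4 1.70-fold (0.0361) and THBS2, detected on neither array numbered 2, at least 1.60-fold (0.0390), or 0.0642, 0.0704 and 0.0703 with the block of 3 levels. Of 15 measured genes of the melanocyte lineage and its loss, from 27 listed, 1 rose, 3 fell and 11 did not pass, beside the same shares of all genes. GPNMB, a melanosome glycoprotein, had 9.25 in vemurafenib 2, against 11.81 and 11.63, and 7.84 in DMSO 2, against 8.95 and 8.60 (3.27-fold lower, 0.0239), and a second probe just missed the threshold (-1.53, 0.0551). SOX9 fell 2.14-fold (0.0466, and 0.0825 with the block) and RAB27A, which moves melanosomes, at least 1.76-fold (0.0256), while NGFR rose. SOX9, a transcription factor of the neural crest, had 8.04 in vemurafenib 2, against 8.54 and 8.49, and 7.35 in DMSO 2, against 9.17 and 8.97, so its difference was -0.48 without DMSO 2 and -1.72 without vemurafenib 2. A second RAB27A probe did not pass (-0.38, 0.494). RAB27A and THBS2 entered the test through the other arrays alone, so their calls are not independent of the detection filter. As a check on the labelled cell, the neural crest factor SOX10 was detected on all 6 arrays, with 11.01 in vemurafenib 2, against 10.41 and 9.98, and 10.39 in DMSO 2, against 9.82 and 10.03, and it did not pass. The pigment genes TYR, TYRP1, GPR143 and TRPM1 were detected on no array.

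Of these genes, all but THBS1 lost their call without at least 1 sample. IL11 and PHLDA1 missed the threshold without vemurafenib 2 (limma adjusted p = 0.0612 and 0.115) and vemurafenib 1 (0.0554 and 0.0671), IL11 also without DMSO 2 (0.0507) and PHLDA1 also without vemurafenib unnumbered (0.0525) and DMSO 1 (0.0539). GPNMB missed it without vemurafenib 2 (0.0758), unnumbered (0.0677) and 1 (0.0782). DLC1, ITGA3, LAMA4, THBS2, SOX9 and RAB27A missed it without at least 5 of the 6 samples (0.0508 to 0.214). Fibroblast markers gave 0 calls of 6 measured in limma's test (1 higher at an unadjusted p under 0.05), with the matrix proteins LUM at -0.60 ± 0.32 and DCN at 0.08 ± 0.21 (SE), and a summed signal of 261 to 280 intensity units in the samples numbered 2 and 218 to 434 in the others. Of 10 endothelial markers, 4 were measured and 3 of these did not pass. ESAM entered the test only through the 2 arrays numbered 2, since no other array detected it, so its call (0.0463, and 0.0743 with the block of 3 levels) is not read as a difference. It had 5.40 in vemurafenib 2, against 4.497 and 4.55, and 5.25 in DMSO 2, against 4.49 and 4.90, and with detection required on 3 arrays it was not tested. CDH5, KDR, TEK, CLDN5 and EMCN were detected on no array, and the summed signal was 226 to 268 in the samples numbered 2 and 227 to 255 in the others, and its part in the result was not tested. Of 17 measured housekeeping genes 0 passed, with a median of 0.01 and, at an unadjusted p under 0.05, 1 higher and 2 lower.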

How the data were processed

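Per the labels' protocols, RNA was extracted with Trizol, cleaned with DNase treatment on RNeasy columns, checked on a Bioanalyser and amplified to biotin-labelled cRNA. The deposited intensities are mean bead signals on a linear scale that the authors left without background subtraction or normalization, as the values show. The detection p-values stand beside them as deposited, and their computation is not stated in the labels or headers. The deposited log2 values match quantile-normalized intensities without background correction (largest gap 0.0513). Their median was 6.54 on each array, with no centring of genes, and they served as an alternative.

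Background was corrected with limma's normexp from the detection p-values (offset 16), followed by quantile normalization and log2 (R 4.3.3, limma 3.58.1). Of 48107 probes, 4 lacked values and were left out, and 20857 were kept because at least 2 of the 6 arrays detected them (detection p under 0.01), the smaller side having 2 arrays. A gene, named through GEO's platform annotation, is its brightest kept probe (12036 genes). Of 30111 probes with 1 symbol, 30074 matched RefSeq names. The test was limma's, with treatment and number as terms, and Benjamini-Hochberg adjustment ran over all kept probes at 0.05. The drug-by-number difference came from a fit with an interaction term, whose spread rests on the unnumbered and 1 samples alone. A fold is given as "at least" where a gene was not detected on any array of the dim side, and the bound then uses the higher of its own signal and the dimmest detected signal. These genes, and RORA, entered the test through the arrays of the brighter side alone. Their p-values and their part in the list counts are thus not independent of the detection filter. Summed marker signals are sums of normalised intensities, detected or not. The script was tested on simulated data.

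The members and gene lists were chosen with earlier results of these data known, including that these samples stand apart. Genes were named by rule: the 10 largest rises and falls among called genes, up to 4 called members per list (or 2 of the highest mean where none passed) and 4 genes of interest. For the rises and falls, each sample numbered 2 had to lie on the same side of both others of its treatment. Rises had to be detected on both arrays numbered 2, falls on all 4 others, and placeholder symbols were left out. One further gene of that rule was not analysed here. Deviations from the treatment means correlated between the treatments at 0.170 for the unnumbered, 0.308 for the 1 and 0.490 for the 2 samples, each over 0.1, so the numbers were taken to pair the samples. Across the numbers unnumbered and 1 the correlations were as high (0.231 and 0.316), and between sample 2 and these they were -0.427 to -0.275, so the check sets sample 2 apart but not the unnumbered from the 1 samples. A fit with the number as 3 levels is given where it changed a call. Alternatives were an offset of 50, leaving out the background correction, centring arrays on their medians, the deposited log2 values, other filters, limma's trend and robust options, the block, averaging the unnumbered and 1 samples, the mean of probes and leaving out each sample.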

Additional observations from a re-analysis of the deposited data

How the results depend on the processing

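No called gene among those named changed direction under any alternative. Values of 18 called named genes moved by over 1.5 times without vemurafenib 2 and of 18 without DMSO 2. Of 99 called named genes, 68 also passed with the number as a replicate block of 3 levels and 21 without each sample in turn. By setting, 95 passed with no background correction, 96 with an offset of 50, 94 with median centring, 94 with the deposited log2 values, 92 with the trend and robust options, 96 with the mean of probes, 47 with no filter on dim probes and 21 with the unnumbered and 1 samples averaged. With detection on at least 3 arrays 98 of 98 passed. Lists are given below as S phase, mitosis, ribosome, interferon, cholesterol, fatty acid, glycolysis and hypoxia genes, higher for the first 3 and lower for the rest.

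Genes differing between the samples numbered 2 and the others numbered 2358 with no background correction (47.8% higher), 2262 with an offset of 50, 2338 with the deposited log2 values (47.9% higher), 2363 with trend and robust options, 530 with no filter, 533 with the replicate block and 87 after averaging, against 1211. With no background correction, 31 S phase, 26 mitosis and 12 glycolysis genes passed. With an offset of 50 these were 31, 28 and 11, with 16 hypoxia genes, and with the deposited values 31, 26 and 12. Median centring gave 32 S phase and 17 mitosis genes, detection on at least 3 arrays 6 mitosis genes, and trend and robust options 15 mitosis and 11 glycolysis genes. With no filter, where more probes are tested, there were 3 S phase, 0 mitosis, 9 ribosome, 9 interferon, 5 fatty acid, 1 glycolysis and 2 hypoxia genes. With the replicate block, which uses more degrees of freedom, there were 5 S phase, 1 mitosis, 5 ribosome, 12 interferon, 4 fatty acid, 3 glycolysis and 4 hypoxia genes. After averaging, which leaves 2 samples against 2, there were 0 S phase, 0 mitosis, 0 ribosome, 2 interferon, 1 cholesterol, 1 fatty acid, 1 glycolysis and 1 hypoxia gene. Among the named genes, the calls lost with the block are given beside their values. For 11 genes named after their values were seen, the block and leaving out each sample were added after seeing the data. DBP and IGFBP7 passed throughout, and BAMBI, RORA, IGFBP6, RFC3, IFIT1 and IFIH1 passed with the block.

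Leaving out each sample in turn gave 153 to 590 genes in all, with ranges of 0 to 17 S phase, 0 to 47 mitosis, 0 to 4 ribosome, 2 to 9 interferon, 2 to 4 cholesterol, 2 to 4 fatty acid, 0 to 3 glycolysis and 2 to 5 hypoxia genes. The lone remaining sample numbered 2 is then assumed to vary like the others. The drug-by-number difference gave 221 genes with no background correction, 159 with an offset of 50, 2 with median centring, 165 with the deposited values, 257 with trend and robust options, and 0 to 64 without one of the unnumbered or 1 samples. It could not be fitted without either sample numbered 2, and averaging left it no residual degrees of freedom. Where no cause is given above, the cause was not tested.

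Among 13 named genes that did not pass, 8 changed sign. HSP90B1 was at 0.042 with median centring, and EEF1A1, a translation factor, was at -0.035 with median centring and -0.035 with the mean of probes. Leaving out each sample in turn gave -0.13 to 0.28 for TKT, -0.11 to 0.075 for ATP5F1B, -0.30 to 0.078 for COX7C, -0.47 to 0.31 for HSP90B1, -0.023 to 0.10 for EEF1A1, -0.20 to 0.043 for GAPDH, -0.14 to 0.30 for DCN and -0.072 to 0.52 for CD24.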

Other observations

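Some further gene groups were chosen after their values were seen, and no test supports them as groups. Over all genes, 3.72% rose and 6.34% fell. Of 14 measured clock genes, 1 rose, 3 fell and 10 did not pass. DBP, a clock-controlled transcription factor, had a log2 intensity of 6.68 in vemurafenib 2, against 8.94 and 8.93 in the other vemurafenib samples, and 5.34 in DMSO 2, against 7.25 and 7.16 in the other DMSO samples (log2 difference -2.07 ± 0.15 SE, limma adjusted p = 0.00350). BHLHE40 fell, RORA, a nuclear receptor of the clock, was detected on all 4 other arrays and on neither array numbered 2 (adjusted p = 0.0170), and the repressor CRY1 rose by 0.61 (adjusted p = 0.0400, and 0.0813 with the block of 3 levels). RORA entered the test through those 4 arrays alone, so its call is not independent of the detection filter. DBP passed without each sample in turn, RORA missed the threshold without DMSO 2 or any of the vemurafenib samples (0.0511 to 0.0799), and CRY1 without each of the 6 (0.0801 to 0.15). Of 6 measured insulin-like growth factor binding proteins, 3 fell and 3 did not pass. IGFBP7 had 6.88 in vemurafenib 2, against 9.57 and 8.89, and 7.16 in DMSO 2, against 9.08 and 9.39 (-2.22 ± 0.22, adjusted p = 0.00530), and IGFBP6 fell by 0.91 (adjusted p = 0.0213) beside IGFBP5. IGFBP7 passed without each sample in turn, and IGFBP6 missed the threshold without all but vemurafenib 2 (0.0529 to 0.102).

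Of 14 measured genes of the TGF-beta and BMP response, 3 rose, 1 fell and 10 did not pass. Besides PMEPA1 and THBS1, BAMBI, a decoy receptor, had 10.997 in vemurafenib 2, against 9.49 and 9.09, and 10.46 in DMSO 2, against 8.99 and 9.40 (1.48 ± 0.20, limma adjusted p = 0.0127), while the matrix protein TGFBI fell by 0.74 (adjusted p = 0.0330, and 0.0683 with the block of 3 levels). BAMBI missed the threshold without vemurafenib 2 (0.0598) and TGFBI without each of the 6 samples (0.0642 to 0.135). Of the 5 D-type cyclins and their kinases, CCND2 fell and CDK6 rose by 0.71 (adjusted p = 0.0422, and 0.0812 with the block), while CCND3 (0.54, adjusted p = 0.0553), CCND1 (0.49, adjusted p = 0.195) and CDK4 (0.27, adjusted p = 0.292) did not pass, and CDK6 missed the threshold without each of the 6 samples (0.0532 to 0.185).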
